A study of Mus musculus with 23 samples.

Results

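The genes described here encode guidance cues and their receptors: semaphorins, plexins and neuropilins, ephrins and Eph receptors, slits and robos, netrins and UNC5 receptors. They were picked by symbol, with earlier results of these data known, and 71 of the 24029 genes of the deposited table matched. Of these, 3 share only the letters. Unc50 encodes a Golgi membrane protein, Unc5cl a death domain protein related to UNC5C, and Plxna4os1 is a noncoding RNA opposite Plxna4, which leaves 68 guidance genes. The RNA came from C3H10T1/2, a mouse mesenchymal stem cell line of C3H origin that can become fat cells. Libraries of mature adipocytes (day 7) were TELP T18, TELP N9_ss, TELP N9 and standard, and libraries of pre-adipocytes (day 0) were TELP N9 and standard, 1 library per group. TELP is the library construction method that the series presents, and the labels do not spell out T18, N9 or ss. The standard libraries were made from messenger RNA caught on oligo(dT) beads. All 6 groups share a pretreatment with 8.3 nM BMP7 for 3 days, per the labels' protocols. Cells of day 7 had further received 5 µM DEX, 0.5 mM IBMX, 0.12 µg/ml insulin, 1 µM of a compound labelled Rosi and 1 nM T3 until day 2, and then insulin, Rosi and T3. The line is an in vitro model, and nothing in the labels says that the libraries came from separate cultures.

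Guidance molecules were first known for steering axons and are used by many other tissues to control cell movement, contact and vessel growth. Secreted class 3 semaphorins bind neuropilins, which pass the signal on through plexins, whereas membrane semaphorins mostly bind plexins directly. Ephrins and Eph receptors both sit on cell surfaces and signal in both directions on contact, A-type ephrins through a lipid anchor and B-type ephrins through a membrane-spanning chain. Slits are secreted ligands of robos, and netrins act through DCC, neogenin and the UNC5 receptors. In mouse fat, a fragment of Slit2 is known to promote heat production, and in mouse marrow Sema3a is known to hold back adipocyte formation.

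The values are RPKM as deposited, that is reads per kilobase of transcript normalised for library size. Relative sequencing depth could be read from the steps of the low values. It was 0.331 for TELP T18, 0.4 for TELP N9_ss, 0.382 for TELP N9 and 0.985 for standard at day 7, and 1.573 for TELP N9 at day 0, with standard day 0 set to 1. Whether the N9_ss library is a measurement separate from N9 is not stated. For 3008 of 3609 genes under 1 RPKM its values and those of N9 had a single ratio within 0.05%, against 297 of 2980 genes between the pair of standard libraries. Levels of 1 RPKM or more were found for 7 of the 71 genes in T18, 27 in N9_ss, 27 in N9 and 33 in standard at day 7, and for 37 in TELP N9 and 38 in standard at day 0. The share over the whole table moved less outside T18: it was 28.3% in T18, 42.9% in N9_ss, 43.1% in N9 and 46.2% in standard at day 7, against 47.1% in TELP N9 and 46.3% in standard at day 0.

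At day 7 most guidance genes that could be compared had lower values than at day 0, and a few membrane semaphorins had higher ones. The difference was taken on log2(RPKM + 1), which understates the change of low genes, and a gene was called at an absolute difference of 1 with a mean of 1 RPKM or more over the TELP N9 and standard libraries of both days. That mean was reached by 35 of the 71 genes. A gene expressed on only 1 of the days passes this filter through the day on which it is high, so the counts describe those 35 and not the whole family. In the TELP N9 libraries 4 were called higher and 26 lower, where 13.5% and 29.8% of all 11474 genes kept were called higher and lower. In the standard libraries 1 was higher and 13 lower, against 8.3% and 6.45% of all genes kept. In both library types 1 gene, Sema4a, was higher and 12 were lower, or 2.86% and 34.3% of the 35, beside 7.23% and 5.81% of all genes kept. Scaled by median of ratios, 2 were higher and 9 lower in both, and the share of all genes was not counted under that scaling. Remarks below that the days did not overlap are for genes already called from these libraries. It is not stated whether N9_ss is separate from N9, and T18 was lower than N9 for most of the table. A lack of overlap therefore adds no support to a call, and its share over all genes was not counted. Of these 13 genes, Sema3a, Sema4a, Plxna2, Efna5, Ephb2 and Slit2 overlap another annotated gene, which for Sema4a and Slit2 is a microRNA gene. Whether exons overlap was not examined and the strand handling is not given. Whether any of their reads come from those genes is therefore not known.

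The median difference of the 35 was -1.88 in the TELP N9 libraries and -0.81 in the standard libraries, and that of all genes kept was -0.46 and -0.17. Scaled by median of ratios, the medians of all genes were 0.00 and -0.03 and those of the 35 were -1.55 and -0.66. The library types gave the same sign for 33 of the 35, and their differences had r = 0.640 across these genes, which share libraries and are not replicates. For all genes kept the sign was the same for 9432 of 11474 and r was 0.642. Every group holds 1 library, so these calls are by size. With library type as a block, limma called 1 of the 35 lower at a false discovery rate of 0.05 and 0 higher, against 0.209% and 1.41% of all genes, while 24 and 3 of them had an unadjusted p under 0.05, as did 1872 and 1265 of all 11474 genes. The gene it called was Efnb2 (adjusted p = 0.0485). Without a trend of the spread with level its adjusted p was 0.0681 and 0 genes of the 35 were called, against 0.715% and 0.105% of all genes called higher and lower. Sema3a came next in limma (adjusted p = 0.0563). The spread in that fit is how far the library types disagree about the day difference. It does not measure a spread between cultures. In whole-culture RNA, fewer cells of a type and less RNA per cell cannot be told apart.

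**Figure D1:**
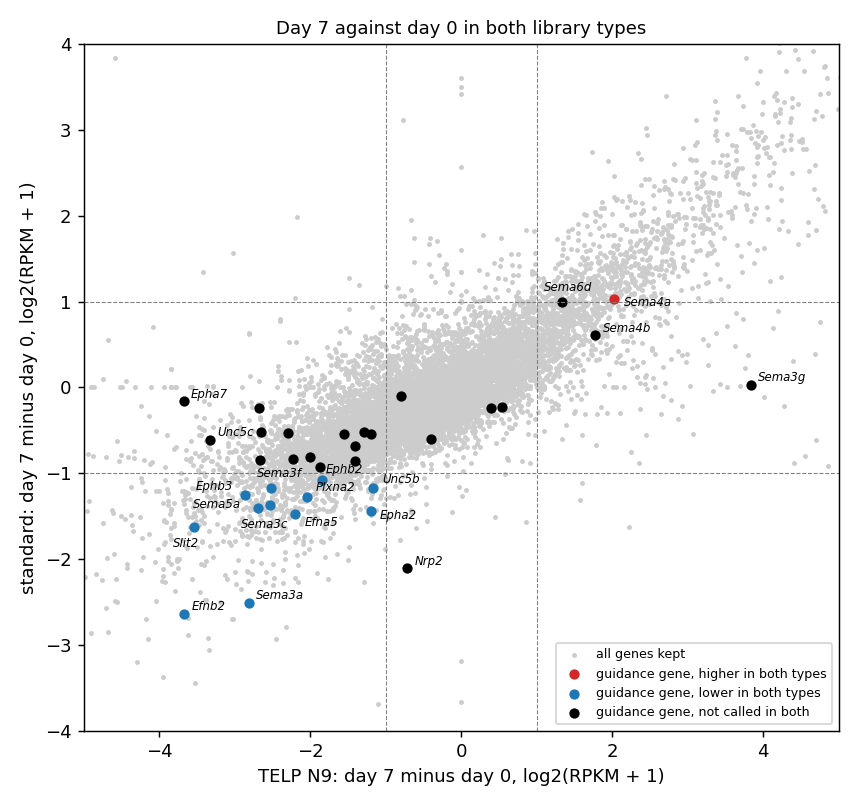
Difference of day 7 minus day 0 in log2(RPKM + 1) for TELP N9 (horizontal) and standard (vertical), each from 1 library per day. Grey points are all 11474 genes kept, of which 283 lie outside the axes. Blue points are the 12 guidance genes called lower in both library types, the red point is Sema4a, called higher in both, black points are guidance genes not called in both, and dashed lines mark the call at 1; Sema3g, Epha7 and Unc5c stand far from 0 in TELP N9 alone.

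Bases upstream of the annotated start are shown for the 3 genes with the largest differences toward lower values in both library types, ranked by the lesser difference (Efnb2, Sema3a and Slit2), for Sema4a, and for Sema3g, whose day difference depended most on library type. Each line gives the 250 bases before the start on the gene's own strand, 5′ to 3′, from RefSeq on GRCm38.p6, a later build than that of the deposited table. Capitals mark matches on either strand to the TATA box searched as TATAAA, to the box known by its letters CCAAT, to the GC box searched as GGGCGG, and to the core element of many nuclear receptors searched as AGGTCA. None of the motifs contains another.
Efnb2, chr8:8661243-8661492, minus strand: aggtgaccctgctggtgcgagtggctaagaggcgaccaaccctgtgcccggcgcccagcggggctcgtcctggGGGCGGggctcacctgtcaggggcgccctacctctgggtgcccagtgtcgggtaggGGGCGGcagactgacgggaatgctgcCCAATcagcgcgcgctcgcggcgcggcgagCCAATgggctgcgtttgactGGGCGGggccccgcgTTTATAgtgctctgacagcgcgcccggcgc
Sema3a, chr5:13396534-13396783, plus strand: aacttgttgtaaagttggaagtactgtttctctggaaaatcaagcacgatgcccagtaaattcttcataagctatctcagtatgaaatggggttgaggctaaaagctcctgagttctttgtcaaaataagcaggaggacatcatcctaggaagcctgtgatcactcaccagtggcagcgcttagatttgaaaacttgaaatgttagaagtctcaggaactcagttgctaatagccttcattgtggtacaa
Slit2, chr5:47982905-47983154, plus strand: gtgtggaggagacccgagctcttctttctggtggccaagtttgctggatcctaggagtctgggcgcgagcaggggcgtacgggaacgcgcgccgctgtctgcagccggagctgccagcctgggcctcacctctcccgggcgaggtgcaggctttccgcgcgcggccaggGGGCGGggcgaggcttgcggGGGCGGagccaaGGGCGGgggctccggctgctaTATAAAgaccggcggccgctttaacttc
Sema4a, chr3:88461183-88461432, minus strand: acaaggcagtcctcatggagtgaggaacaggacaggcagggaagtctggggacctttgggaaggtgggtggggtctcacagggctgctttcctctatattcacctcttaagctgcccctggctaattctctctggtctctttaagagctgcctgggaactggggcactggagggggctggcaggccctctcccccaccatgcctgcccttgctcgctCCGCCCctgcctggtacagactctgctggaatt
Sema3g, chr14:31217623-31217872, plus strand: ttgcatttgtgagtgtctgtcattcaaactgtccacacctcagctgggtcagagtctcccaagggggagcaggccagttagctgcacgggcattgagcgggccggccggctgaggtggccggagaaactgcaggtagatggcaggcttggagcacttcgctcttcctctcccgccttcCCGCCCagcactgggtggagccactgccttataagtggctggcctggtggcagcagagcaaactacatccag

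The window of Sema4a is the first listed of 4. Efnb2 and Slit2 each hold 3 GC boxes and 1 TATA box in windows of 72.0% and 69.6% G and C, Efnb2 holds 2 CCAAT boxes as well, and none of these letters occur in the Sema3a window, at 40.8% G and C. The table had windows for 61 of the 71 genes, 77 in all. GGGCGG was in 71.4% of these and in 32.7% of all 32851 windows, TATAAA in 2.60% and 12.4%, CCAAT in 27.3% and 33.9%, and AGGTCA in 14.3% and 14.0%. A match is a run of letters and not a site shown to be used.

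Among the secreted semaphorins, Sema3a, Sema3c and Sema3f were called lower in both library types. Sema3a, a repellent cue that signals through Nrp1 and A-type plexins, was at 0.252 (T18), 0.339 (N9_ss), 0.328 (N9) and 0.895 (standard) RPKM at day 7, against 8.32 (TELP N9) and 9.80 (standard) RPKM at day 0. Every day 7 library was under 1 RPKM and both day 0 libraries were above 8, and the differences were -2.81 in TELP N9 and -2.51 in the standard libraries. Sema3c, which binds both neuropilins, was the most abundant of the class at day 0. It was at 0.839, 3.65, 3.63 and 9.83 RPKM in T18, N9_ss, N9 and standard at day 7, against 25.9 and 27.0 RPKM in TELP N9 and standard at day 0. The days did not overlap, and the differences were -2.54 and -1.37 in TELP N9 and standard. Sema3f, a ligand of Nrp2, was at 0.855, 1.63, 1.65 and 5.92 RPKM at day 7 in the same order, against 14.2 and 14.6 RPKM at day 0, a difference of -2.52 and -1.17. Sema3b was called in TELP N9 only, at -1.41 against -0.68 in the standard libraries, where the difference between the types was not tested, and lost that call under quantile normalization (-0.81).

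Sema3g, a class 3 semaphorin that signals mainly through Nrp2, was high in N9 and N9_ss, whose low values had a single ratio for most genes, and near 0 in every other library. It was at 0.120 (T18), 14.3 (N9_ss), 13.9 (N9) and 0.101 (standard) RPKM at day 7, against 0.0380 (TELP N9) and 0.0798 (standard) RPKM at day 0. Whole reads could be recovered for this gene. They numbered 2 in T18, 287 in N9_ss, 266 in N9 and 5 in standard at day 7, against 3 in TELP N9 and 4 in standard at day 0. The exact Poisson 95% interval was 235 to 300 reads for N9 and 1.62 to 11.7 for standard at day 7, and covers counting error only, although the standard library was the deeper of the pair. The difference of the days was 3.84 in TELP N9, 0.11 with T18 in place of N9, and 0.03 in the standard libraries. Neighbouring genes on GRCm38.p6 did not share the pattern: Phf7 was at 2.65 RPKM in N9 and 3.13 RPKM in standard at day 7, and Tnnc1 at 0.364 and 1.55 RPKM. Sema3g is annotated with no overlapping gene.

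Besides Sema3g, the genes called higher at day 7 in TELP N9 were the membrane semaphorins Sema4a, Sema4b and Sema6d. Sema4a, which binds plexins and is best known from immune cells and vessels, was at 0.221 (T18), 3.37 (N9_ss), 3.47 (N9) and 1.19 (standard) RPKM at day 7, against 0.0932 (TELP N9) and 0.0733 (standard) RPKM at day 0. All day 7 libraries stood above both day 0 libraries, with differences of 2.03 in TELP N9 and 1.03 in standard, just past the call. The call in both types ended under quantile normalization (0.98 in standard), with T18 in place of N9 (0.16), with the filter at 5 RPKM and in limma. Sema6d, a ligand of Plxna1, lay just outside it at 1.33 and 0.998, and was called in both types under each of 3 other scalings and with a pseudocount of 0.1. It was at 0.425, 4.55, 4.62 and 3.93 RPKM in T18, N9_ss, N9 and standard at day 7, against 1.23 and 1.47 RPKM in TELP N9 and standard at day 0, so T18 was below both day 0 libraries. Sema4b was at 1.35, 18.02, 18.03 and 6.93 RPKM at day 7 in the same order, against 4.55 and 4.21 RPKM at day 0. Its difference was 1.78 in TELP N9 and 0.61, short of a call, in standard, and T18 was again below day 0. The T18 values are unscaled here, and 83.4% of all genes kept were called lower in T18 than in N9. Being below day 0 in T18 is therefore not particular to these genes.

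Sema5a, a membrane semaphorin with thrombospondin repeats, went the other way, at 0.119 (T18), 0.180 (N9_ss), 0.188 (N9) and 2.05 (standard) RPKM at day 7, against 6.72 (TELP N9) and 7.08 (standard) RPKM at day 0. The days did not overlap, and the differences were -2.70 and -1.41 in TELP N9 and standard. Sema4c, a ligand of Plxnb2, was called lower in TELP N9 (-1.41, and -0.82 under quantile normalization) and not in standard (-0.85). Summed over its 13 genes, the membrane class was at 28.7 RPKM in N9 and 18.5 in standard at day 7, against 20.2 and 20.1 RPKM in TELP N9 and standard at day 0. The 7 secreted genes together were at 20.9 and 19.9 RPKM at day 7, against 54.6 and 58.1 at day 0, in the same order. Sema3g alone made up 13.9 RPKM of the sum in N9.

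**Figure D2:**
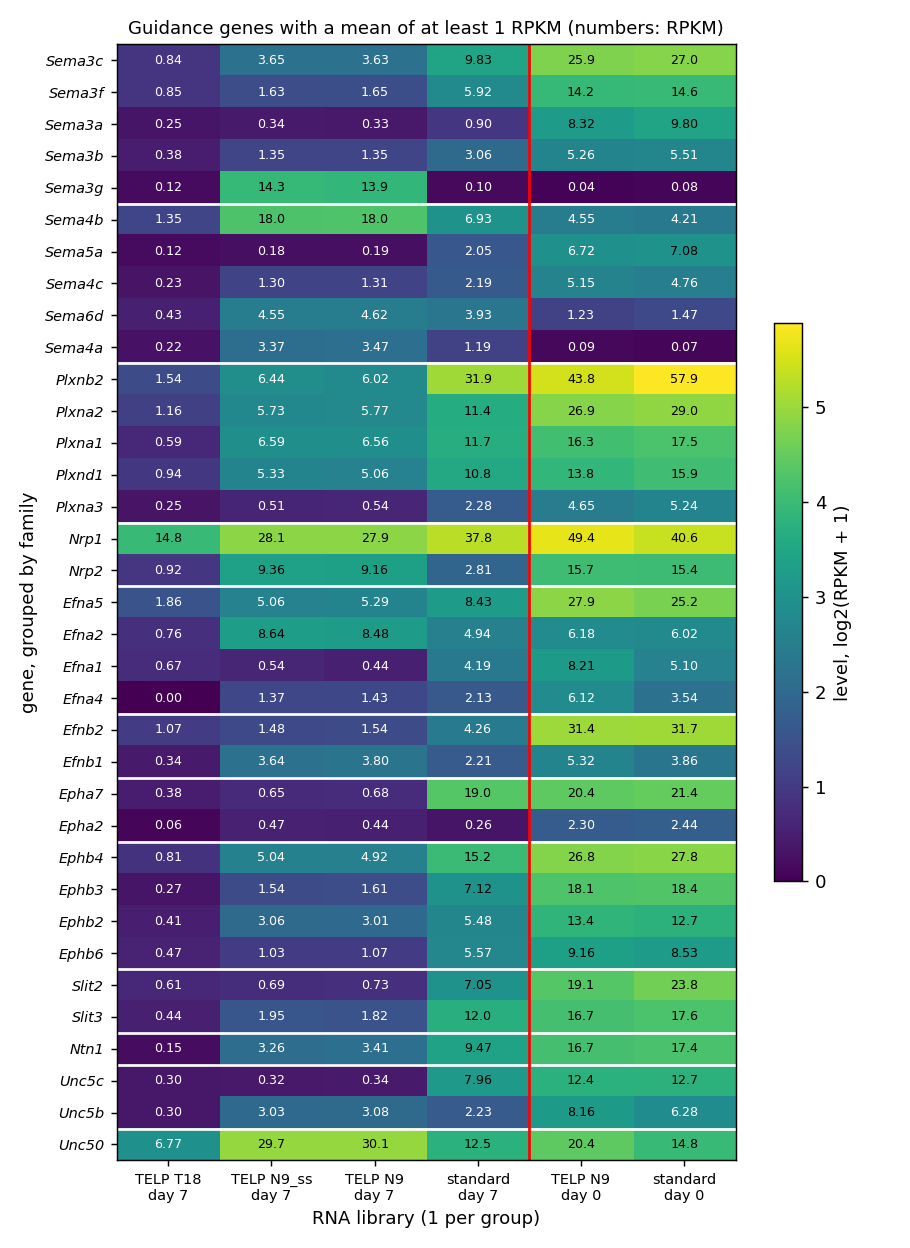
Levels of the 35 genes kept, 1 row per gene grouped by family and 1 column per library. Colour gives log2(RPKM + 1), the printed number is RPKM, and the red line separates day 7 (left) from day 0 (right). Rows are dark on the left and bright on the right for most genes, and Sema3g, Sema4a, Sema4b and Sema6d are brighter in N9 and N9_ss than at day 0.

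Plexins, the receptors that carry the semaphorin signal into the cell, were the most abundant family at day 0. Plxna2, a receptor for class 3 and class 6 semaphorins, was the only plexin called lower in both library types. It was at 1.16 (T18), 5.73 (N9_ss), 5.77 (N9) and 11.4 (standard) RPKM at day 7, against 26.9 (TELP N9) and 29.0 (standard) RPKM at day 0, with no overlap and differences of -2.04 and -1.28 in TELP N9 and standard. Plxnb2, the plexin with the highest mean level over the TELP N9 and standard libraries, was at 6.02 RPKM in N9 and 31.9 in standard at day 7, against 43.8 and 57.9 RPKM in TELP N9 and standard at day 0. It was called in TELP N9 (-2.67) and not in standard (-0.84). Plxna1, Plxna3 and Plxnd1, the last known from vessel patterning, were likewise called in TELP N9 alone, at -1.19, -1.88 and -1.28 against -0.54, -0.93 and -0.52 in standard. The calls of Plxna1 and Plxnd1 ended by median of ratios (-0.70 and -0.81) and by quantile normalization (-0.77 and -0.83). The 9 plexins summed to 24.7 RPKM in N9 and 68.7 in standard at day 7, against 107 and 127 RPKM in TELP N9 and standard at day 0.

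The neuropilins, which are also co-receptors of VEGF, had similar day differences in TELP N9 and parted in the standard libraries. Nrp1 was at 14.8 (T18), 28.1 (N9_ss), 27.9 (N9) and 37.8 (standard) RPKM at day 7, against 49.4 (TELP N9) and 40.6 (standard) RPKM at day 0. It was called in neither type, at -0.80 and -0.10, and had the highest level of the guidance genes in each day 7 library. Nrp2 was at 0.918, 9.36, 9.16 and 2.81 RPKM in T18, N9_ss, N9 and standard at day 7, against 15.7 and 15.4 RPKM in TELP N9 and standard at day 0. It was the 1 gene called lower in the standard libraries (-2.11) and not in TELP N9 (-0.72).

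Efnb2, a B-type ephrin that marks arterial endothelium and is the main partner of Ephb4, differed most of the genes called lower in both library types. It was at 1.07 (T18), 1.48 (N9_ss), 1.54 (N9) and 4.26 (standard) RPKM at day 7, against 31.4 (TELP N9) and 31.7 (standard) RPKM at day 0. All day 7 values were under 5 RPKM and both day 0 values above 30, with differences of -3.67 in TELP N9 and -2.64 in standard. As plain ratios, the TELP N9 level at day 0 was 20.3 times that at day 7 and the standard level 7.44 times. Efnb1, its paralog on the X chromosome, was called in neither type (-0.40 and -0.60).

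Efna5, an A-type ephrin with a lipid anchor, was the other ephrin called lower in both types. It was at 1.86, 5.06, 5.29 and 8.43 RPKM in T18, N9_ss, N9 and standard at day 7, against 27.9 and 25.2 RPKM in TELP N9 and standard at day 0, a difference of -2.20 and -1.47 with no overlap of the days. Efna1 was at 0.438 RPKM in N9 and 4.19 in standard at day 7, against 8.21 and 5.10 RPKM in TELP N9 and standard at day 0, and was called in TELP N9 (-2.68) and not in standard (-0.23). Efna4 was called in TELP N9 alone too, at -1.55 against -0.54, and not under quantile normalization (-0.94). Efna2 differed by 0.40 in TELP N9 and -0.24 in standard, with no call.

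Of the Eph receptor kinases, Epha2, Ephb2 and Ephb3 were called lower in both library types. Ephb3 was at 0.266 (T18), 1.54 (N9_ss), 1.61 (N9) and 7.12 (standard) RPKM at day 7, against 18.1 (TELP N9) and 18.4 (standard) RPKM at day 0, and its differences were -2.87 and -1.25. Ephb2 was at 0.406, 3.06, 3.01 and 5.48 RPKM at day 7 in the same order, against 13.4 and 12.7 RPKM at day 0, and its differences were -1.85 and -1.08, the second of which was -0.93 by median of ratios and -0.99 by quantile normalization, short of a call. The days did not overlap for either receptor. Epha2, known from epithelia and for its ligand Efna1, was low throughout, at 0.0563, 0.465, 0.438 and 0.265 RPKM in T18, N9_ss, N9 and standard at day 7, against 2.30 and 2.44 RPKM in TELP N9 and standard at day 0. Behind these stood 1, 10, 9 and 14 reads at day 7, against 194 and 131 reads at day 0, and the differences were -1.20 and -1.44. In TELP N9 Epha2 was not called by median of ratios (-0.95) or quantile normalization (-0.76). Ephb4, the receptor of Efnb2, was at 4.92 RPKM in N9 and 15.2 in standard at day 7, against 26.8 and 27.8 RPKM in TELP N9 and standard at day 0, and was called in TELP N9 (-2.23) and not in standard (-0.83). Ephb6, which lacks kinase activity, was called in TELP N9 alone (-2.29 against -0.54).

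Epha7, a receptor of A-type ephrins, depended on library type more than any other gene that was lower. It was at 0.385 (T18), 0.645 (N9_ss), 0.675 (N9) and 19.0 (standard) RPKM at day 7, against 20.4 (TELP N9) and 21.4 (standard) RPKM at day 0. The standard day 7 library lay beside both day 0 libraries, and all TELP libraries of day 7 were under 1 RPKM. The differences were -3.68 in TELP N9 and -0.16 in standard.

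Slit2, the ligand whose fragment is known in mouse fat, was called lower in both library types. It was at 0.610 (T18), 0.694 (N9_ss), 0.727 (N9) and 7.05 (standard) RPKM at day 7, against 19.1 (TELP N9) and 23.8 (standard) RPKM at day 0, with no overlap and differences of -3.54 and -1.62. Slit3 was at 1.82 RPKM in N9 and 11.95 in standard at day 7, against 16.7 and 17.6 RPKM in TELP N9 and standard at day 0, and was called in TELP N9 (-2.65) and not in standard (-0.52). The robos, their receptors, were scarce on both days. The highest, Robo2, was listed at 0 in the 3 TELP libraries of day 7 and at 0.701 RPKM in standard, against 1.21 and 1.20 RPKM in TELP N9 and standard at day 0. Robo1 had 1, 2, 2 and 28 reads in T18, N9_ss, N9 and standard at day 7, against 129 and 49 reads in TELP N9 and standard at day 0, and no robo reached the mean of 1 RPKM.

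Unc5b, a netrin receptor known from vessels, was called lower in both library types at -1.17 and -1.17, but not in TELP N9 by median of ratios (-0.73) or quantile normalization (-0.61). It was at 0.296 (T18), 3.03 (N9_ss), 3.08 (N9) and 2.23 (standard) RPKM at day 7, against 8.16 (TELP N9) and 6.28 (standard) RPKM at day 0, with no overlap of the days. Unc5c was at 0.2998, 0.324, 0.339 and 7.96 RPKM in T18, N9_ss, N9 and standard at day 7, against 12.4 and 12.7 RPKM in TELP N9 and standard at day 0. Like Epha7 it was close to 0 in every TELP library of day 7 and not in the standard library, with differences of -3.33 and -0.61. Ntn1, which encodes netrin-1, was at 3.41 RPKM in N9 and 9.47 in standard at day 7, against 16.7 and 17.4 RPKM in TELP N9 and standard at day 0, and was called in TELP N9 alone (-2.01 against -0.81).

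**Figure D3:**
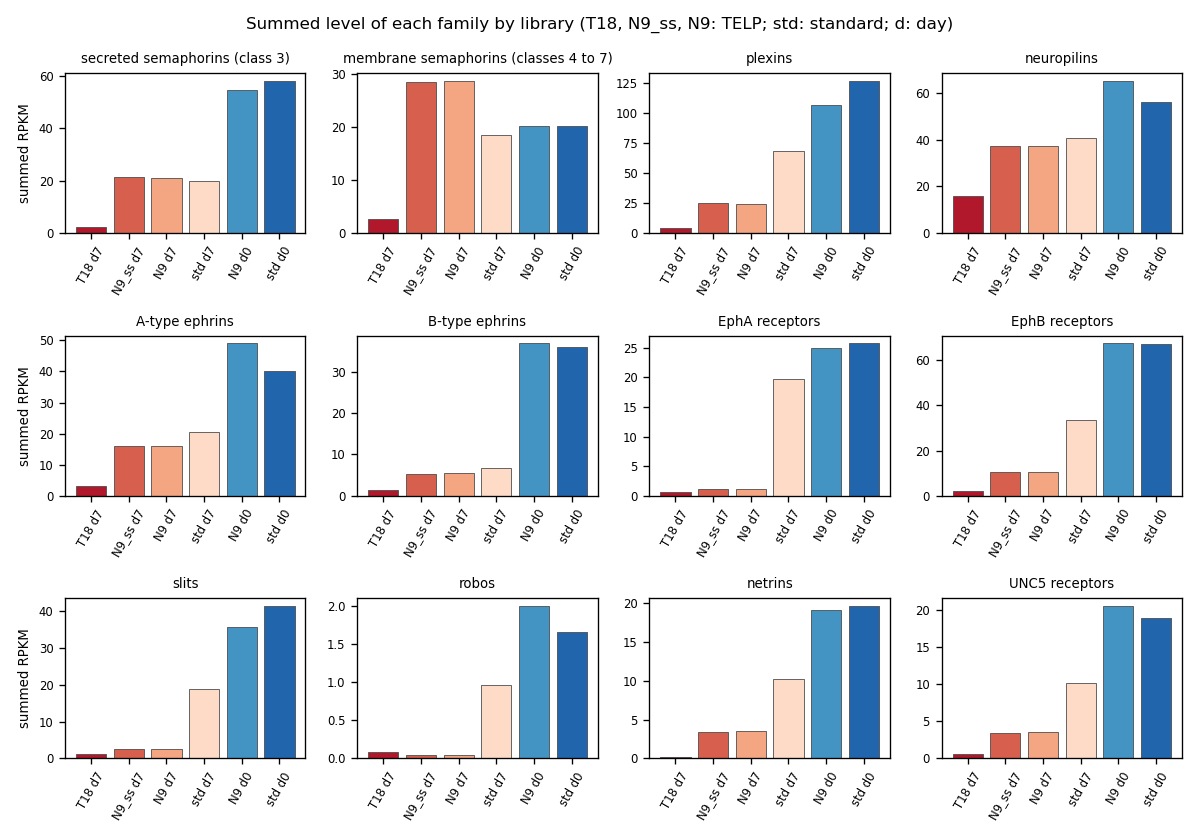
Summed RPKM of each of the 12 families by library, with the day 7 libraries on the left of each panel (red shades) and the day 0 libraries on the right (blue). Bars start at 0, each bar is 1 library, and the vertical scale differs between panels. For EphA receptors the standard day 7 library (19.8) stays near the day 0 libraries (24.96 and 25.76) while N9 is at 1.22. Epha7 made up 19.0 of that 19.8, and Epha2 was called lower in both library types. The membrane semaphorins are highest in N9 and N9_ss.

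The library types differed little for these genes at day 0 and widely at day 7. Among the 37 genes with a mean of 1 RPKM or more over both day 0 libraries, 0 were called higher and 0 lower in TELP N9 than in standard, where 2.2% and 0.718% of all genes kept were called. The differences ran from -0.40 to 0.65. Among the 33 kept at day 7, 5 were higher and 15 lower in TELP N9, beside 7.51% and 17% of all genes kept. After quantile normalization 7 were higher and 10 lower, for which the share of all genes was not counted. Sema3g (3.76), Nrp2 (1.42), Sema4b (1.26), Unc50 (1.20) and Sema4a (1.03) were the higher ones. Epha7 (-3.58), Unc5c (-2.74), Plxnb2 (-2.23), Slit2 (-2.22), Slit3 (-2.20) and Efna1 (-1.85) were the lowest. Of the other calls, Plxna3 and Efnb2 were lost by median of ratios and by quantile normalization, Sema3c, Sema3f and Ntn1 by quantile normalization, and Unc50 and Sema4a by equal totals. The median was -0.87 for the 33 and -0.23 for all genes kept. With 1 library each, a difference of method and a difference between the RNA samples of day 7 cannot be told apart.

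**Figure D4:**
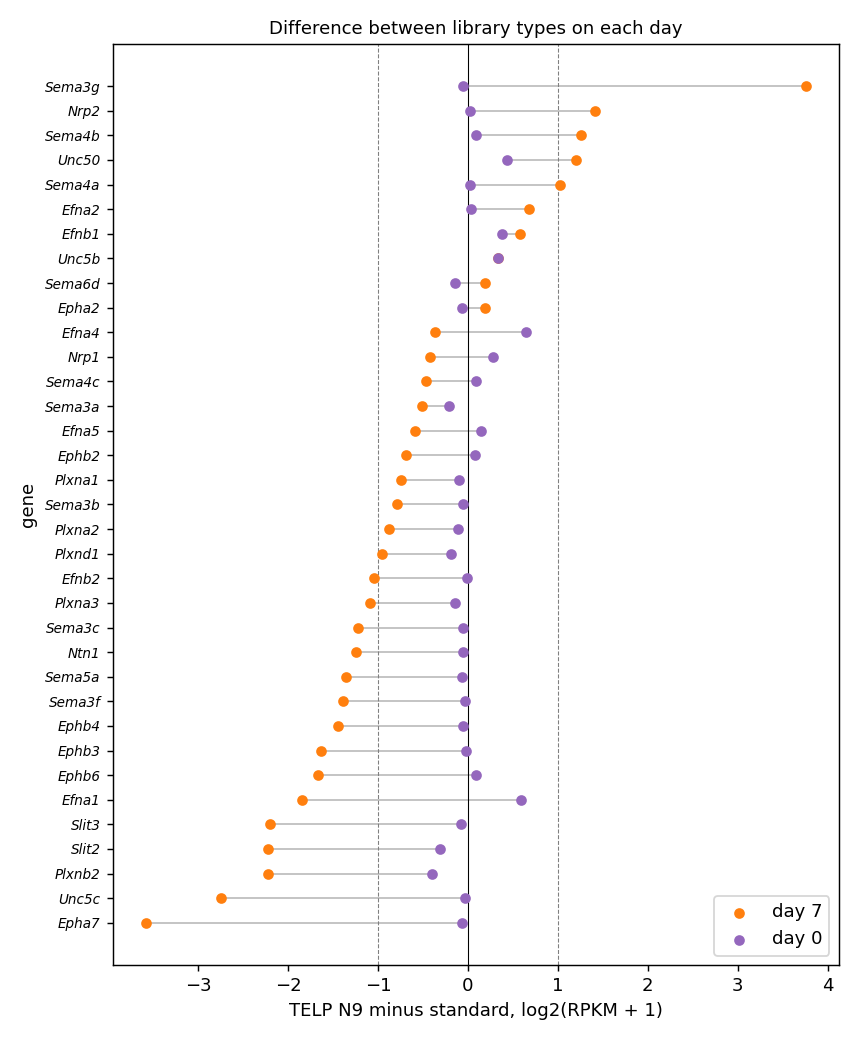
TELP N9 minus standard in log2(RPKM + 1) for the 35 genes kept, at day 7 (orange) and day 0 (purple), 1 library per group and day, sorted by the day 7 value. Purple points lie within -0.40 to 0.65, orange points spread from -3.58 for Epha7 to 3.76 for Sema3g, and dashed lines mark the call at 1.

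TELP T18 gave lower values than TELP N9 for these genes as it did for most of the table. Among 22 genes with a mean of 1 RPKM or more over both libraries, 0 were called higher and 18 lower, next to 0.841% and 83.4% of all genes kept. Their median was -1.68, beside -1.77 for all genes kept. After scaling by median of ratios the medians were -0.31 and -0.13, and 1 gene was called higher and 2 lower, and after quantile normalization 2 and 4. The shares of all genes were not counted under these scalings. The largest difference was that of Sema3g (-3.73), followed by Sema4b (-3.02), and Nrp1 kept the highest T18 level at 14.8 RPKM. Genes other than small noncoding RNAs held 151857 of the summed 582373 RPKM in T18. They held 376162 of 584704 RPKM in N9 at day 7 and 337732 of 409303 RPKM in TELP N9 at day 0. N9_ss gave 0 calls in either direction among 27 genes against N9, with differences from -0.06 to 0.08, beside 0.0194% and 0.00968% of all genes kept.

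Partners and effectors of the guidance genes, among them other ligands and receptors, were read from 5 lists. They are set beside the 7.23% higher and 5.81% lower in both types of all genes kept. No difference between lists was tested. Among 19 measured collapsin response mediators and plexin effectors, 0 were called higher and 3 lower in both library types. The lower ones were led by Rnd3, which differed by -4.71 in TELP N9 and -2.57 in standard. Dpysl3, a collapsin response mediator, differed by -4.59 and -2.48, and Fyn, a kinase bound by plexins, by -2.45 and -1.32. The medians of the list were -0.57 in TELP N9 and -0.24 in standard. Of 17 ephrin receptor effectors 1 was higher (Pick1, 1.46 and 1.01) and 2 lower (Grb10 and Chn2), with medians of -0.75 and -0.28. Of 19 slit and netrin partners 1 was higher (Dapk1, a kinase downstream of Unc5b, 1.65 and 2.01) and 6 lower, led by Flrt2 (-4.43 and -2.10), a ligand of Unc5d, and Flrt3 (-3.23 and -1.82). Their medians were -1.66 and -0.67.

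Of 15 regulators that link these receptors to actin, 0 were higher and 1, Pak1, was lower in both types (-2.47 and -1.18), and the median was -0.42 and -0.30, beside -0.46 and -0.17 for all genes kept. Of 4 measured neuropilin partners outside the family, Vegfa, the vascular growth factor, was higher in both types and 0 were lower. Vegfa was at 95.5 RPKM in N9 and 28.8 in standard at day 7, against 12.9 and 10.7 RPKM in TELP N9 and standard at day 0. Of the netrin receptors outside the UNC5 family, Neo1, which encodes neogenin, was at 10.9 and 24.6 RPKM at day 7, against 29.4 and 34.6 RPKM at day 0, and Dcc was under 0.01 RPKM in each library.

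Adipocyte markers matched the day labels, with 13 of 13 called higher in both library types and sums between 6345 (T18) and 37739 (N9_ss) RPKM at day 7, against 34.9 and 43.8 RPKM at day 0. Of 11 preadipocyte markers, all kept, 4 were called lower in both types, and none was called higher. Because several guidance genes are known from vessels and neurons, markers of both were read. Of 11 endothelial markers, Tie1 and Cldn5 were listed at 0 in all 6 libraries, and Pecam1 and Cdh5 were under 0.2 RPKM in each. Their sum was 0.387 to 4.80 RPKM at day 7, against 12.6 RPKM in both day 0 libraries, of which Tek made up 9.46 and 11.2 RPKM in TELP N9 and standard. Of the 2 kept, Tek was called lower in both types (-3.39 and -2.48), and Egfl7, at 4.15 RPKM in N9 and 3.21 in standard at day 7 against 2.94 and 1.08 RPKM at day 0, differed by 0.39 and 1.01. Of 12 neuronal markers, Nefl and Elavl4 were at 0 in all 6, and 3 of the 4 kept (Map2, Gap43 and Stmn2) were called lower in both types. The neuronal sum was 1.27 to 6.23 RPKM at day 7, against 27.5 and 27.1 RPKM at day 0, mostly Map2 at 15.9 and 21.0 RPKM. Among the bone and cartilage markers 2 of 3 kept were lower in both types, and among the muscle markers 1 of 1. Among the leukocyte markers it was 0 of 2, and none of the 3 lists had a gene called higher in both types. Cd68, a leukocyte marker, was called higher in TELP N9 alone (2.00 against 0.48 in standard). Of all genes kept, 7.23% were called higher and 5.81% lower in both types. The part of these marker transcripts in the guidance gene differences was not tested.

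The 36 genes below the mean of 1 RPKM had means up to 0.984 RPKM (Epha4), and a low RPKM did not always mean few reads. Unc5cl was listed at 0 in all 6 libraries. Plxna4, a receptor of Sema3a, had 2, 1, 1 and 49 reads in T18, N9_ss, N9 and standard at day 7, against 144 and 96 reads in TELP N9 and standard at day 0. Epha4 was at 0.171 RPKM in T18, listed at 0 in N9_ss and N9 and at 0.426 RPKM in standard at day 7, against 2.00 and 1.51 RPKM in TELP N9 and standard at day 0, and lay just under the filter. Ntn4 and Sema3d were listed at 0 in all TELP libraries of day 7 and at 0.511 and 0.0892 RPKM in standard, against 1.48 and 0.790 RPKM in TELP N9 and 1.16 and 1.04 RPKM in standard at day 0. Plxnb3 went the other way, at 0.686 RPKM in N9 and 0.182 in standard at day 7, against a listed 0 in TELP N9 and 0.0119 RPKM in standard at day 0. Sema7a was at 1.06 RPKM in standard at day 7 against 0.384 at day 0, and at a listed 0 in N9 against 0.287 RPKM in TELP N9 at day 0. A listed 0 in these files can be a failed estimate, so no fold is given for them.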

How the data were processed

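The authors deposited RPKM values for 24029 genes in 6 RNA libraries. Bowtie2, TopHat, Cufflinks and mm9 are named per the submitters' processing notes, while their versions, the annotation and the use of strand were not given in the sources used here. The 17 chromatin libraries of the series were not analysed here. The genes and lists were chosen with earlier results of these data known. Differences are on log2(RPKM + 1), with genes kept at a mean of 1 RPKM and called at 1. All 35 guidance genes kept could be named, those called in both library types in full, with up to 5 called genes per list. Relative depth came from the commonest ratio of values under 1 RPKM between libraries, and its products round 2 loops of libraries were 1.000. Whole reads were accepted for 8 of the 71 genes, within 0.02 reads plus a small share of the count. The limma fit (limma 3.58.1, R 4.3.3) used 4 libraries with library type as a block, a trend of the spread with level and 1 residual degree of freedom. Scripts were tested on simulated data. All 71 symbols matched RefSeq names. Alternatives were another pseudocount, filters, 3 scalings, N9_ss or T18 in place of N9, and limma.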

Additional observations from a re-analysis of the deposited data

Results flagged for a closer look

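For 2 of the 35 genes kept, the day 7 library lay above day 0 in TELP N9 and below it in the standard libraries. Efna2 differed by 0.40 in TELP N9 and -0.24 in standard, and Unc50, the Golgi gene matched by letters only, by 0.53 and -0.23. With T18 in place of N9, a library lower than N9 for most of the table, they differed by -2.03 and -1.46. Each value rests on 1 library per day, neither reached a call with N9, though Unc50 did by median of ratios (1.06), and the difference between the library types was not tested.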

How the results depend on the processing

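With a filter at a mean of 5 RPKM, TELP N9 gave 1 higher and 17 lower at day 7 against day 0, the standard libraries 0 higher, both types together 0 higher and 8 lower, TELP N9 against standard at day 7 6 lower, and T18 against N9 4 lower; fewer genes are tested there. With T18 in place of N9, 0 were higher in TELP or in both types. Sema4b (-1.24) and Sema6d (-0.65) were then lower at day 7, in unscaled values of a library below N9 for most of the table. A pseudocount of 0.1, median of ratios and equal totals each gave 2 higher in the standard libraries and 2 in both types. Equal totals gave 3 higher in TELP N9 against standard at day 7. For T18 against N9, the counts higher and lower were 1 and 2 by median of ratios, 2 and 4 by quantile normalization, and 10 were lower by equal totals. The limma fit called 0 higher and 1 lower, and 0 and 0 without a trend. Of the 13 genes called in both types, 10 stayed called by median of ratios, which lost Epha2, Ephb2 and Unc5b, and 9 by quantile normalization, which lost Sema4a as well. The limma fit without a trend and the counts without the 3 genes matched by letters were added after seeing the data. The cause of these changes was not tested apart from the filter. Shares of all genes kept were counted for the limma fits and not for the other filters, scalings and substitutions. No paired analysis was possible because each RNA group holds 1 library and the groups share only replicate number 1, so that no replicate could be left out either; the block in limma is library type. Genes near 1 RPKM in TELP libraries of day 7 rest on few reads.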
